A study of Mus musculus with 15 samples.

Results

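The transcripts of 7 mucin genes, *Muc1*, *Muc4*, *Muc13*, *Muc15*, *Muc16*, *Muc20* and *Muc5b*, were followed across endometrial organoids with and without transforming growth factor β (TGFβ) signaling through SMAD2 and SMAD3. Members were found by matching their Ensembl mouse identifiers to the rows of the normalized expression matrix, and 6 of the 7 had a row among 16729 rows in all. *Muc4* had no row under its identifier and was not analysed here.

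Mucins are large proteins whose serine- and threonine-rich stretches, often repeated in tandem, carry dense O-linked sugar chains. The transmembrane members form the glycocalyx on the apical face of epithelia, where they keep microbes and other cells at a distance and where their cytoplasmic tails take part in signaling, while the gel-forming members are stored in granules and secreted as mucus. In the uterus, *Muc1* covers the luminal and glandular epithelium, and in the mouse its loss from the surface accompanies the receptive state for embryo attachment.

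Organoids were grown from uterine epithelium of adult mice in 4 groups. The methods of the study give 3 or 4 different mice per condition but do not list *Smad2/3* cKO + A83-01, and whether the label numbers stand for mice is not stated. Control organoids carried Smad2flox/flox; Smad3flox/flox and received DMSO (control + vehicle, n = 3) or A83-01, an inhibitor of the TGFβ family type I receptors ALK4, ALK5 and ALK7 (control + A83-01, n = 4). *Smad2/3* cKO organoids carried the same floxed alleles with Ltfcre/+, a Cre driven by the lactoferrin gene that acts in adult uterine epithelium, and likewise received DMSO (*Smad2/3* cKO, n = 4) or A83-01 (*Smad2/3* cKO + A83-01, n = 4). All 4 groups thus shared the floxed alleles, and the Cre was present in the *Smad2/3* cKO mice throughout, not added in culture. The design asks how genetic and pharmacological loss of SMAD2/3 signaling, alone and together, bear on the organoids.

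Values were normalized counts, which are reads estimated per gene and divided by a size factor for each sample, and they summed to 20241771 to 24423127 per sample. The number of reads behind a sample is not in these values, and a normalized count of 3 or less was taken as the lowest measurable level. *Smad2* lay between 1045 and 1335 in control + vehicle and between 821 and 924 in *Smad2/3* cKO (log2 fold change -0.41, limma adjusted p = 0.0656), and *Smad3* did not differ beyond its spread (log2 fold change -0.07, limma adjusted p = 0.827), but whole-gene values cannot show the removal of floxed exons. The 7 epithelial markers all had a mean above 10 in every group, and their summed normalized count was 243415 to 315239 in control + vehicle and 122126 to 230097 in *Smad2/3* cKO. Markers of other cell types were scarce: the 6 stromal markers with a row summed to 27.4 to 191 in control + vehicle and 2.96 to 24.7 in *Smad2/3* cKO, the 3 smooth muscle markers to 55.1 to 192 and 5.75 to 23.1, the 4 leukocyte markers to 93.9 to 460 and 390 to 1635, the 1 mesothelial marker (*Upk3b*) to 20.4 to 195 and 28.0 to 248, the 2 endothelial markers to 1.80 to 5.17 and 2.45 to 27.6, and the 4 markers of ciliated epithelium to 23.8 to 57.8 and 9.20 to 19.8.

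The start regions of the 3 members on which the comparisons turn are shown first, since the pathway blocked in these organoids ends in SMAD proteins that bind DNA. Each sequence runs 5′ to 3′ on the gene's own strand from 250 bases before to 50 bases after the RefSeq start site (GRCm38.p6), and capitals mark GTCTG, the SMAD binding element, or its reverse complement CAGAC. *Muc20* (chr16:32797386-32797685, minus strand) is the transmembrane mucin with the clearest difference between groups, *Muc1* (chr3:89228806-89229105, plus strand) is the most abundant member, and *Muc16* (chr9:18674554-18674853, minus strand) was lowest without SMAD2/3.
Muc20: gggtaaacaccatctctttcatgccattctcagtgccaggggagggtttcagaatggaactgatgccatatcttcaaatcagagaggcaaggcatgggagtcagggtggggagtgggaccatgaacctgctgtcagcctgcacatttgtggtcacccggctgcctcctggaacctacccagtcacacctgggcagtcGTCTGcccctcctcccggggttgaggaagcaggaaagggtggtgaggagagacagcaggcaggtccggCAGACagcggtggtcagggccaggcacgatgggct
Muc1: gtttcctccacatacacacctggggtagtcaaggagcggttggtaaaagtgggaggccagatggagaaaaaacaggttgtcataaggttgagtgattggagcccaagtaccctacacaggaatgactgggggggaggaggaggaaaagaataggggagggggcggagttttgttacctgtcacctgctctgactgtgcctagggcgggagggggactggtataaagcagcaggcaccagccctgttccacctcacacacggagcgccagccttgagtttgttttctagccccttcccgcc
Muc16: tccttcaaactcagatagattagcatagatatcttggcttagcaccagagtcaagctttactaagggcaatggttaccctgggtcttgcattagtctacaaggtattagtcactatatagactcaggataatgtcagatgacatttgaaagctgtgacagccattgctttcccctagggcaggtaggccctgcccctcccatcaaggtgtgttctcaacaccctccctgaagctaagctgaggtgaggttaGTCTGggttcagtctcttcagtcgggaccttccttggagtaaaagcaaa
The *Muc20* window held 2 matches, at position -53 and at position 16 from the start site, the *Muc16* window held 1 match at position 2, and the *Muc1* window held none. Of 32851 RefSeq promoter windows of this length, 49.6% held at least 1 match on either strand and 16.2% held 2 or more. The AP-1 motif TGANTCA, searched on both strands, was in none of these 3 windows and in 7.81% of all windows. Promoter windows were matched for 4 of the 6 members, the fourth being *Muc13*, whose 2 windows are not shown. Each of these held an AP-1 match, at positions -61 and -179, and the latter window also held CAGAC at -205. For *Muc16* the last 30 bases of the window were not found in its longest GENCODE transcript, so the position of its start site differs between the 2 annotations.

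The members fell into an abundant and a scarce class. Per kilobase of exon, *Muc1* was the highest member in every group, with a mean level of 5452 ± 755.5 (SD, n = 3) in control + vehicle, 4926 ± 1691 (n = 4) in control + A83-01, 5107 ± 799 (n = 4) in *Smad2/3* cKO and 4673 ± 867 (n = 4) in *Smad2/3* cKO + A83-01. *Muc20* came second, with mean levels per kilobase of 1300 ± 377, 2260 ± 476, 2650 ± 298 and 3223 ± 206 in the same order. Over the 15 samples the mean normalized count of *Muc1* exceeded that of 98.6% of all rows and that of *Muc20* 98.1%. The other 4 were far lower. Their means per kilobase over the 15 samples were 13.3 for *Muc13*, 0.623 for *Muc16*, 0.570 for *Muc5b* and 0.242 for *Muc15*, and *Muc16* and *Muc5b* were neighbours in this order whose ranges over samples overlapped.

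**Figure D1:**
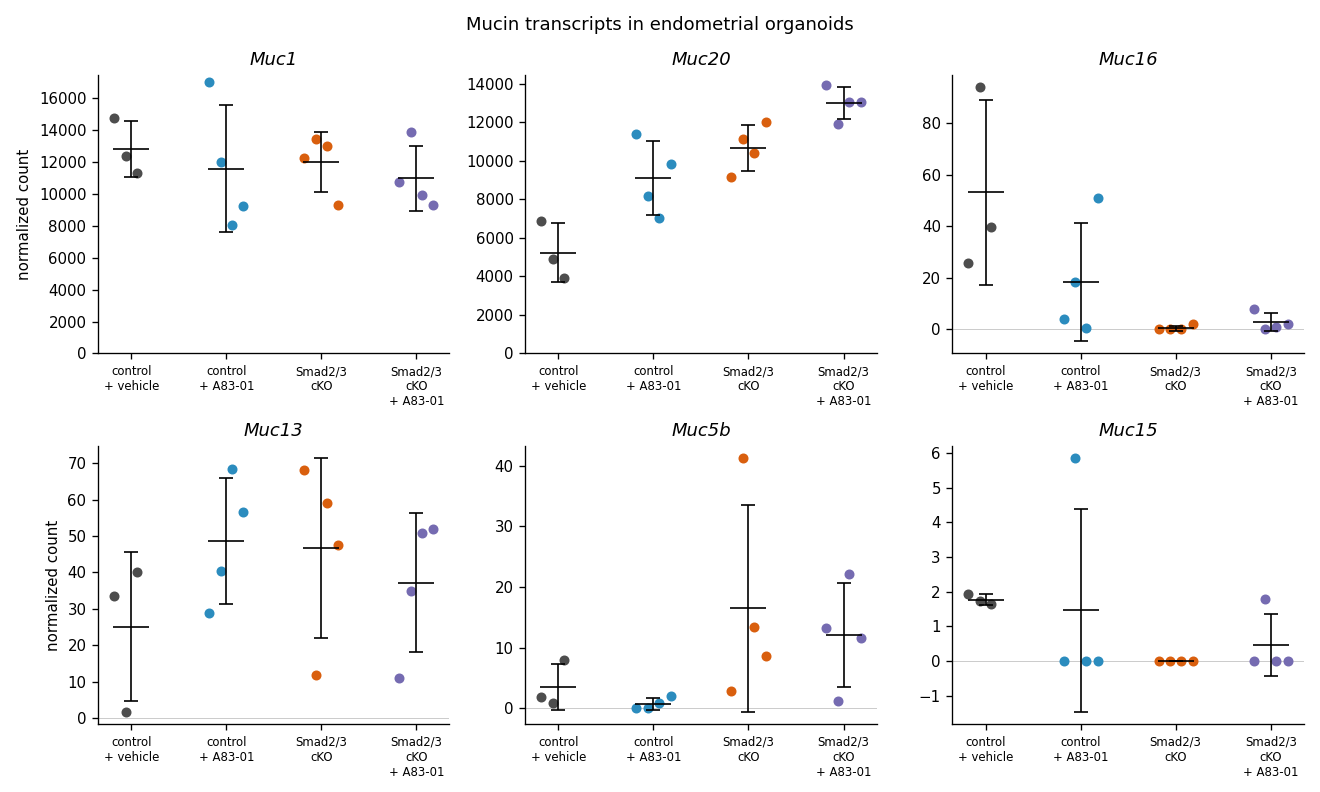
Normalized counts of the 6 mucins with a row, 1 point per sample, by group (n = 3 in control + vehicle and n = 4 in the others). Bars give the mean and its SD, the vertical axes differ between panels, and the SD of a scarce gene can reach below 0. *Muc20* in control + vehicle (3901 to 6888) lies under every other sample, *Muc1* overlaps between all groups, and *Muc16* is at 0 in 3 of 4 *Smad2/3* cKO samples.

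*Muc20* encodes a transmembrane mucin that binds the receptor tyrosine kinase MET and was first studied in kidney. Its normalized counts were 6888, 4910 and 3901 in control + vehicle and 11397, 8180, 7010 and 9818 in control + A83-01. In *Smad2/3* cKO they were 9166, 11145, 10382 and 11992, and in *Smad2/3* cKO + A83-01 they were 13941, 11911, 13020 and 13040. All 12 samples of the other groups lay above the highest control + vehicle sample, and the group means stood in the order just given. Neighbouring groups after the first overlapped: the highest control + A83-01 sample exceeded 3 of the 4 *Smad2/3* cKO samples, and the highest *Smad2/3* cKO sample exceeded the lowest *Smad2/3* cKO + A83-01 sample.

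Between vehicle-treated groups, *Muc20* rose in *Smad2/3* cKO by a log2 fold change of 1.06 ± 0.20 (SE, 2.09-fold, limma adjusted p = 0.00693). It was 1 of 2 members that passed the thresholds (adjusted p below 0.01 and more than 1.4-fold change in either direction) of the 5 tested, the other being *Muc16*, where 7.38% of 13149 genes passed in either direction and 4.08% upward. *Muc16* met the minimum mean for testing only through control + vehicle. For *Muc20* the groups did not overlap, as was so upward for 14.8% of genes. The *Muc20* call did not hold without any 1 of 6 of the 7 samples (all but control + vehicle replicate 1), when its limma adjusted p was 0.0122 to 0.0314 with log2 fold changes of 0.87 to 1.13. Over 9 other changes of setting the call held in 6 (limma adjusted p 0.00151 to 0.0422 over all 9). In the same comparison 1 of the 7 epithelial markers fell (*Cldn4*, log2 fold change -2.55), 6 of the 7 having a negative and *Epcam* a positive difference. Of 4 leukocyte markers tested only *Ptprc* passed (log2 fold change 3.33), 3 having a positive and 1 a negative difference. The part of these markers in the result was not tested. In bulk samples a change in the number of cells that express a gene and a change in RNA per cell cannot be told apart.

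The largest *Muc20* difference of the 6 comparisons was between *Smad2/3* cKO + A83-01 and control + vehicle, the groups with both and with neither intervention. Here *Muc20* rose by a log2 fold change of 1.35 ± 0.19 (2.54-fold, limma adjusted p = 0.00106), and the call held with each sample left out in turn (adjusted p 0.000794 to 0.00698). Of the 4 members tested 2 passed, *Muc20* upward and *Muc16* downward, beside 11.7% of 13097 genes in either direction and 6.1% upward. *Muc16* again met the minimum mean for testing only through control + vehicle. The groups did not overlap for *Muc20*, as was so upward for 16.1% of genes. In this comparison 3 of the 7 epithelial markers fell (*Krt19*, *Krt8* and *Cldn4*, log2 fold changes -1.62, -1.37 and -1.74). Of 3 leukocyte markers tested only *Ptprc* passed (log2 fold change 3.40), 2 having a positive and 1 a negative difference. The part of these markers in the result was not tested. This comparison, the one above and that of A83-01 in control organoids share the same 3 control + vehicle samples, so their values are not independent of each other.

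A83-01 in control organoids gave a *Muc20* log2 fold change of 0.81 ± 0.24 (95% interval 0.28 to 1.35, 1.76-fold, limma adjusted p = 0.0755), which did not pass. The groups did not overlap, as was the case upward for 10.3% of the 13009 genes tested. The control samples carry shared label numbers, whose meaning is not stated. Within number the ratio of A83-01 to vehicle was 1.65, 1.67 and 1.80, so that the 3 pairs of samples gave close ratios from different starting levels. With the replicate number as a block, which leaves control + A83-01 replicate 4 without a partner, the limma adjusted p was 0.0118, still above the threshold. No member passed in this comparison, in which 2.27% of genes did, and 1 of the 4 members tested, *Muc20*, had an unadjusted limma p below 0.05, as did 22.2% of genes.

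A83-01 in *Smad2/3* cKO organoids gave a smaller *Muc20* difference of 0.29 ± 0.12 on the log2 scale (95% interval 0.02 to 0.55, limma adjusted p = 0.994). None of the 4 members tested passed, and 0% of 12998 genes did, while 1 member had an unadjusted limma p below 0.05, as did 4.26% of genes. The effect of A83-01 on *Muc20* in *Smad2/3* cKO organoids minus that in control organoids was -0.53 ± 0.26 (95% interval -1.08 to 0.03, limma adjusted p = 0.387), where 0.551% of 13066 genes passed and none of the 4 members tested did (1, *Muc16*, at an unadjusted limma p below 0.05, beside 14.3% of genes), so a weaker effect in *Smad2/3* cKO organoids was not established. Under A83-01, *Muc20* in *Smad2/3* cKO exceeded control by 0.53 ± 0.17 (95% interval 0.16 to 0.91, limma adjusted p = 0.335). These groups did not overlap, as for 3.38% of genes upward, and 0.0232% of 12915 genes passed but none of the 4 members tested, with 1 member at an unadjusted limma p below 0.05 beside 9.52% of genes. *Smad2/3* cKO against control + A83-01, deletion set against inhibitor, differed by 0.25 ± 0.17 (95% interval -0.14 to 0.64, limma adjusted p = 0.738), with 0% of 12980 genes passing and 0 of the 3 members tested at an unadjusted limma p below 0.05 beside 6.36% of genes.

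**Figure D2:**
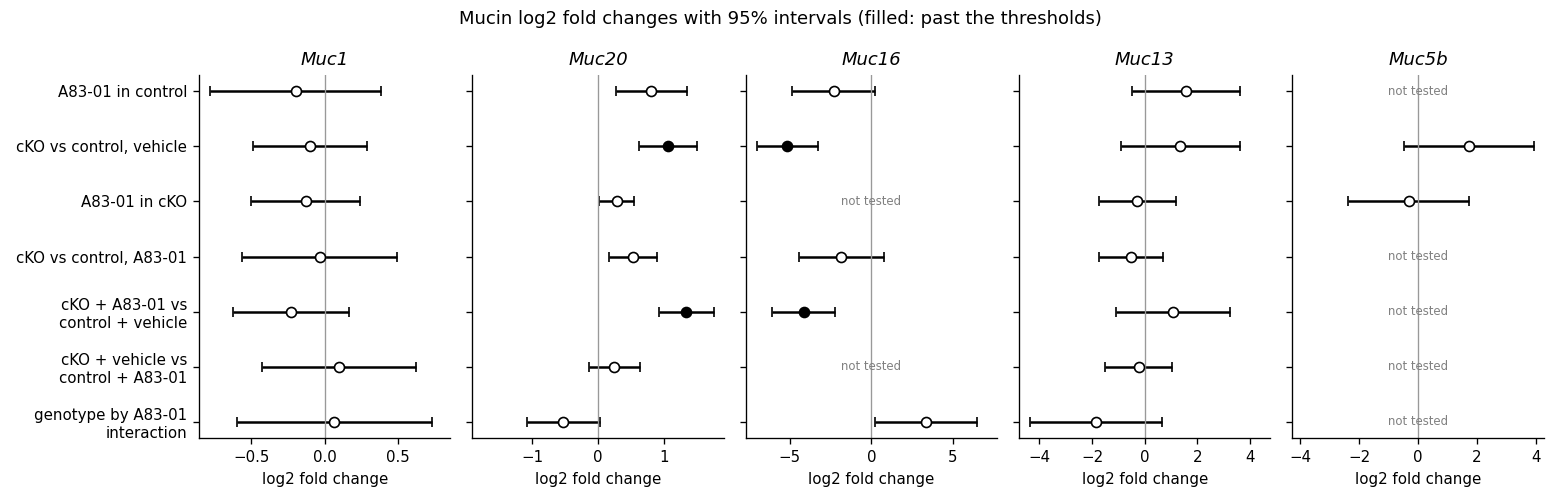
Log2 fold changes (horizontal axis) from limma with their 95% intervals for the 5 members tested at least once, in 6 comparisons of 2 groups and, in the lowest row, the effect of A83-01 in *Smad2/3* cKO minus that in control organoids. Filled points passed the thresholds: *Muc20* at 1.06 and 1.35 and *Muc16* at -5.16 and -4.14, and "not tested" marks a mean under 10 in the samples compared.

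Reads of *Muc20* can overlap those of *Muc4*, a membrane mucin that binds ERBB2 and lies on the opposite strand. The 2 genes share 627 exon bases in GENCODE vM21, of 4027 in *Muc20*, and the library kit does not mark strand, so reads from those bases cannot be assigned.

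*Muc1*, the anti-adhesive mucin of the uterine surface, did not follow *Muc20*. Its normalized counts were 14749, 12329 and 11296 in control + vehicle and 16966, 11980, 8030 and 9248 in control + A83-01. They were 12220, 13447, 12986 and 9273 in *Smad2/3* cKO and 10739, 13885, 9935 and 9297 in *Smad2/3* cKO + A83-01. The ranges of all 4 groups overlapped, and control + A83-01 held both the highest and the lowest sample. The log2 difference was -0.10 ± 0.17 for *Smad2/3* cKO against control + vehicle (95% interval -0.49 to 0.29, limma adjusted p = 0.719) and -0.20 ± 0.26 for A83-01 in control organoids (95% interval -0.78 to 0.39, limma adjusted p = 0.720). Within label numbers the ratio of A83-01 to vehicle was 1.15, 0.972 and 0.711, above 1 in 1 pair and below 1 in the others. For *Smad2/3* cKO + A83-01 against control + vehicle the difference was -0.23 ± 0.18 (95% interval -0.63 to 0.16, limma adjusted p = 0.389), and these intervals still allow changes of either sign.

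The balance of the 2 abundant mucins was described by their ratio, whose differences between groups were not tested. It holds the same *Muc20* values as above and so is no separate evidence. The ratio of *Muc20* to *Muc1* per kilobase, taken within each sample, was 0.272, 0.232 and 0.201 in control + vehicle, and 0.391, 0.398, 0.509 and 0.618 in control + A83-01. It was 0.437, 0.483, 0.466 and 0.753 in *Smad2/3* cKO and 0.756, 0.4998, 0.763 and 0.817 in *Smad2/3* cKO + A83-01. Every sample of the other groups lay above the 3 control + vehicle samples, and the other groups overlapped among themselves. As a share of the summed level per kilobase of the 6 mucins, *Muc20* made up 19.0 ± 2.33% in control + vehicle, 32.0 ± 4.75% in control + A83-01, 34.4 ± 5.75% in *Smad2/3* cKO and 41.1 ± 5.27% in *Smad2/3* cKO + A83-01, while the summed level itself was 6763 ± 1132, 7203 ± 2077, 7774 ± 688 and 7909 ± 738. A ratio within a sample shows unequal change and does not depend on the size factors.

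**Figure D3:**
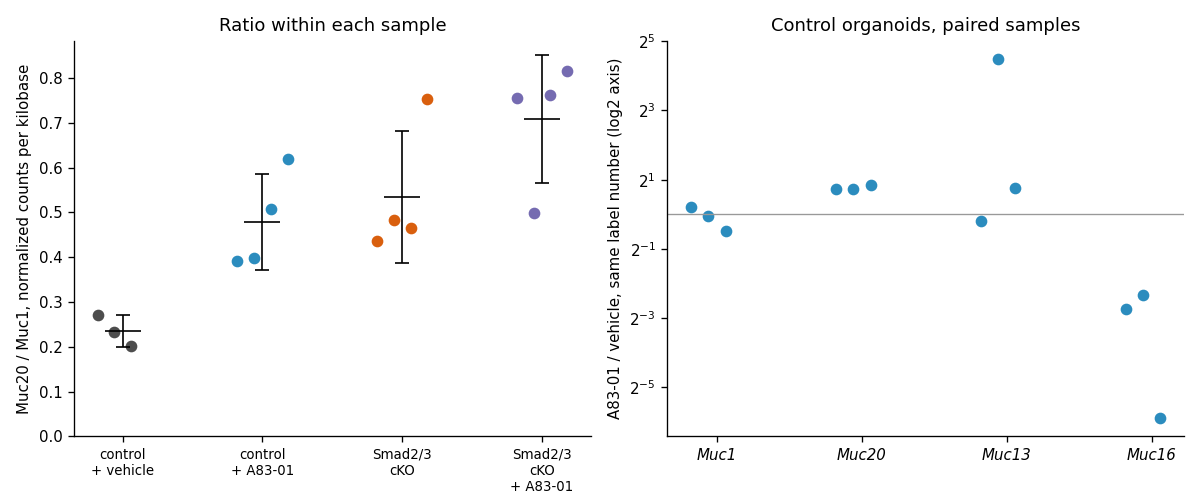
Left, the ratio of *Muc20* to *Muc1* in normalized counts per kilobase within each sample, with the mean and SD per group (0.235 ± 0.0355, 0.479 ± 0.107, 0.535 ± 0.147 and 0.709 ± 0.142 in the order drawn). Right, the ratio of A83-01 to vehicle in the 3 pairs of control samples that share a label number, on a log2 axis: the *Muc20* points lie together between 1.65 and 1.80, the *Muc16* points lie below 0.20, and the *Muc1* and *Muc13* points lie on both sides of 1.

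*Muc16* encodes the very large transmembrane mucin that carries the CA125 antigen and binds mesothelin. Its normalized counts were 25.9, 94.0 and 39.9 in control + vehicle and 3.84, 18.6, 0.666 and 50.8 in control + A83-01. They were 0, 0, 0 and 1.98 in *Smad2/3* cKO and 7.77, 0, 0.974 and 1.92 in *Smad2/3* cKO + A83-01. All 8 *Smad2/3* cKO samples, with or without A83-01, thus lay below every control + vehicle sample, and 7 of the 8 were at the lowest measurable level, whereas control + A83-01 overlapped with control + vehicle through its replicate 4. *Muc16* fell by 5.16 ± 0.83 on the log2 scale in *Smad2/3* cKO against control + vehicle (limma adjusted p = 0.00399), where 3.3% of genes passed downward and 16% did not overlap downward, and by 4.14 ± 0.86 in *Smad2/3* cKO + A83-01 against control + vehicle (limma adjusted p = 0.00758), where 5.64% passed and 16.9% did not overlap downward. As the lower group is near 0, these sizes depend on the pseudocount and are no bounds: with the alternatives tried the first ran from -7.75 to -2.45. In both comparisons *Muc16* met the minimum mean for testing only through control + vehicle, so its call could only be downward.

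The *Muc16* call in *Smad2/3* cKO did not hold without control + vehicle replicate 1, 2 or 3 (limma adjusted p = 0.01695, 0.0312 and 0.0154), with log2 fold changes of -5.57, -4.66 and -5.27. The *Muc16* call in *Smad2/3* cKO + A83-01 against control + vehicle held in 2 of 8 changes of setting (limma adjusted p 0.00491 to 0.0492), and single samples left out gave 0.00499 to 0.0489. In *Smad2/3* cKO against control + vehicle 1 smooth muscle marker could be tested, *Acta2*, and it fell by 3.12 on the log2 scale. The 1 stromal marker that could be tested had a log2 fold change of -3.70 (unadjusted limma p below 0.05) and did not pass. *Upk3b* of mesothelium, a tissue that expresses *Muc16*, had a log2 fold change of 0.04 (limma adjusted p = 0.982). The part of other cells in the *Muc16* result was not tested. A83-01 in control organoids gave a *Muc16* log2 fold change of -2.31 ± 1.12 (limma adjusted p = 0.271), and the ratios within label numbers were 0.148, 0.198 and 0.0167, below 1 in 3 of 3 pairs. With the replicate block, which sets aside the unpaired and highest control + A83-01 sample, the value was -3.12 (limma adjusted p = 0.0305). The genotypes did not differ past the thresholds in the effect of A83-01 on *Muc16* (3.33 ± 1.47, limma adjusted p = 0.314).

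*Muc13*, a transmembrane mucin with EGF-like domains best known from the intestine, varied widely within groups. Its normalized counts were 33.5, 1.79 and 40.1 in control + vehicle, 29.0, 40.5, 68.4 and 56.5 in control + A83-01, 68.0, 11.8, 59.1 and 47.7 in *Smad2/3* cKO and 10.9, 35.0, 50.7 and 51.9 in *Smad2/3* cKO + A83-01. In 3 of the 4 groups 1 sample was under 12, and all groups overlapped. No comparison passed, and the log2 differences between 2 groups ran from -0.52 ± 0.54 (*Smad2/3* cKO against control under A83-01, limma adjusted p = 0.830) to 1.58 ± 0.91 (A83-01 in control organoids, limma adjusted p = 0.361). The effect of A83-01 in *Smad2/3* cKO minus that in control organoids was -1.86 ± 1.18 (limma adjusted p = 0.537). The value of 1.58 was 0.33 without control + vehicle replicate 2, the sample at 1.79.

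*Muc5b*, the gel-forming mucin of airway and cervical mucus, was near the lowest measurable level in control organoids. Its normalized counts were 1.93, 0.897 and 7.92 in control + vehicle and 0, 0, 0.954 and 2.06 in control + A83-01. They were 2.84, 41.2, 13.3 and 8.57 in *Smad2/3* cKO and 13.3, 1.26, 22.1 and 11.5 in *Smad2/3* cKO + A83-01. In each genotype the 2 treatments overlapped, and the genotypes overlapped under vehicle and under A83-01. It reached a mean of 10 only in the 2 comparisons that hold *Smad2/3* cKO samples in vehicle with control + vehicle or *Smad2/3* cKO + A83-01, where the log2 differences were 1.73 ± 0.98 (limma adjusted p = 0.251) and -0.31 ± 0.92 (limma adjusted p = 0.994).

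*Muc15*, a small transmembrane mucin known from the milk fat globule membrane, was not measurable in most samples. It was 1.94, 1.72 and 1.66 in control + vehicle, 5.85 in 1 control + A83-01 sample, 1.79 in 1 *Smad2/3* cKO + A83-01 sample and 0 in the other 10. It reached the minimum for testing in no comparison.

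The members also differed in how repetitive their transcripts are. Repeats were counted within a transcript only and not against other genes, so they do not show whether reads were assigned to the right gene. In the longest GENCODE transcript, the share of 30-base windows that occur more than once was 25.1% for *Muc5b*, 15.9% for *Muc13* with a most common spacing of 81 bases, 3.86% for *Muc16*, 3.52% for *Muc1*, 0.384% for *Muc20* and 0% for *Muc15*. Of 21875 genes, 14.5% held any such window. *Muc20*, on which the comparisons turn, was thus among the least repetitive members.

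Few other mucin genes were measured. Of 23 other mucin and mucin-like genes on the list, 14 had a row, and the gel-forming mucins *Muc2* and *Muc5ac* had group means of at most 6.59 and 9.67. In *Smad2/3* cKO against control + vehicle 7 could be tested, and 2 fell and none rose, beside 3.3% of all genes that fell and 4.08% that rose. *Podxl*, the sialomucin podocalyxin, lay between 245 and 393.4 in control + vehicle and between 63.0 and 126 in *Smad2/3* cKO (log2 fold change -1.84 ± 0.31, limma adjusted p = 0.00502). *Parm1*, a mucin-like glycoprotein, lay between 1493 and 2856 and between 400 and 1097 (log2 fold change -1.81 ± 0.34, limma adjusted p = 0.00713). The list's median log2 fold change was -0.59, beside 0.00 over all genes tested.

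Enzymes that build mucin-type O-glycans moved in both directions. Of the 11 GalNAc transferases tested, which attach the first sugar, 1 rose and 1 fell (all genes: 4.08% and 3.3%) in *Smad2/3* cKO against control + vehicle: *Galntl6* had a mean normalized count of 44.0 ± 30.9 (n = 3) in control + vehicle and 319 ± 116 (n = 4) in *Smad2/3* cKO, and *Galnt10* had 1155 ± 129 and 407 ± 77.4. Of 27 genes for the later steps 3 rose and 1 fell, beside the same shares of all genes. *C1galt1*, which makes the core 1 structure, was at 990 ± 137 in control + vehicle and 2230 ± 373.4 in *Smad2/3* cKO (log2 fold change 1.16 ± 0.17, limma adjusted p = 0.00283), and *St3gal1*, which caps core 1 with sialic acid, was at 934 ± 41.2 and 1753 ± 152 (log2 fold change 0.90 ± 0.13, limma adjusted p = 0.00221). The branching enzymes *Gcnt4* and *Gcnt3* went opposite ways, *Gcnt4* from 48.3 ± 13.4 to 316 ± 180 and *Gcnt3* from 1190 ± 112 to 312 ± 151 (log2 fold changes 2.55 and -2.06, limma adjusted p = 0.00622 and 0.00531).

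Of 14 factors of mucin folding, packaging and the mucus gel, 1 rose and 2 fell, where 4.08% and 3.3% of all genes did. *Rab3d*, a small GTPase of secretory granules, was at 1375 ± 234 in control + vehicle and 3258 ± 539 in *Smad2/3* cKO. *Cftr*, the chloride and bicarbonate channel that hydrates mucus, was at 1615 ± 292 and 129 ± 94.7 (log2 fold change -4.01 ± 0.63, limma adjusted p = 0.00361), and the transcription factor *Creb3l1* at 419 ± 126 and 73.0 ± 31.8. Of 21 partners and sheddases of membrane mucins none rose and 3 fell, where 3.3% of all genes fell: *Mmp14*, a membrane protease that can release MUC1, *Msn*, the actin linker moesin, and *Lgals1*, galectin-1 (log2 fold changes -1.69, -1.10 and -2.59). *Msln*, the binding partner of MUC16, named here after its values were seen, was at 20588 ± 10293 and 5840 ± 4374 and did not pass (log2 fold change -1.97 ± 0.54, limma adjusted p = 0.0345).

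With A83-01 in control organoids, 0 genes of these 5 lists passed in limma, of 6, 11, 29, 14 and 21 tested, and 3, 3, 8, 8 and 7 had an unadjusted p below 0.05, as had 22.2% of all genes. Here *Cftr* had a log2 difference of -4.87 ± 1.001 (limma adjusted p = 0.0225) and *St3gal1* one of 1.004 ± 0.19 (limma adjusted p = 0.0164). With A83-01 in *Smad2/3* cKO organoids 0 genes of the 5 lists passed, and 0, 1, 0, 1 and 2 had an unadjusted limma p below 0.05, as had 4.26% of all genes. In *Smad2/3* cKO + A83-01 against control + vehicle, the lists gave 0, 3, 4, 1 and 1 genes that rose and 2, 1, 1, 5 and 3 that fell, of 6, 11, 27, 14 and 21 tested, where 6.1% of all genes rose and 5.64% fell.

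**Figure D4:**
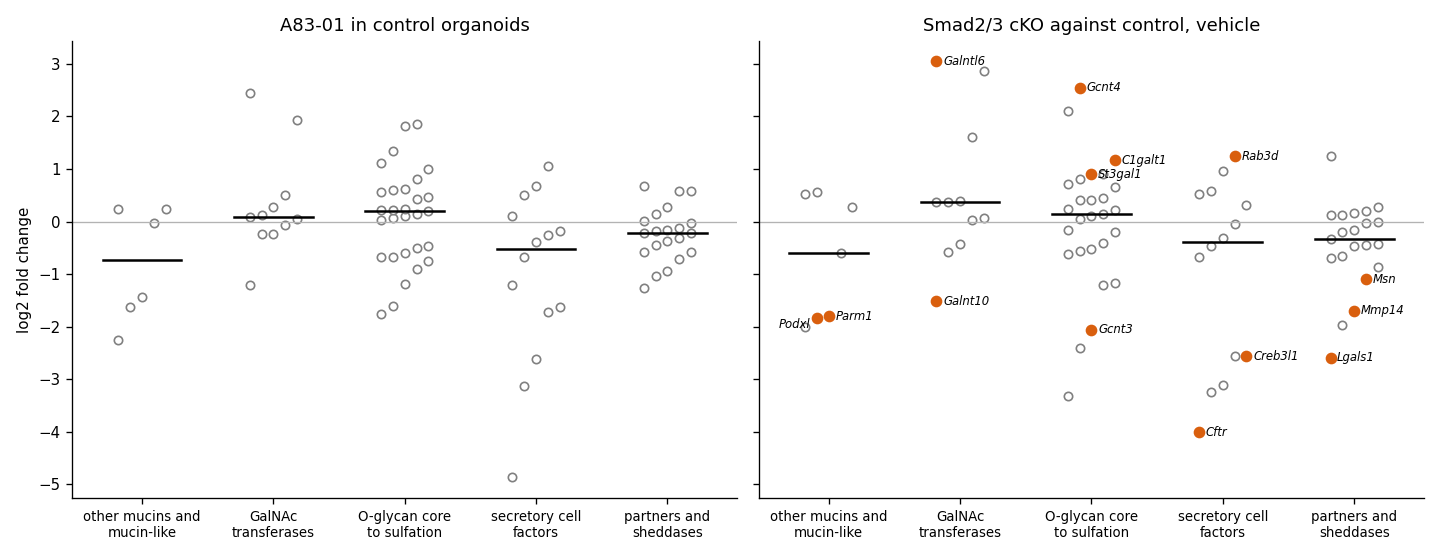
Log2 fold changes of the genes tested from 5 lists that accompany the mucins, for A83-01 in control organoids (left) and for *Smad2/3* cKO against control + vehicle (right), 1 point per gene. Filled and named points passed the thresholds, horizontal bars give the median of each list, and no point passed on the left.

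The genes whose pattern over the 15 samples was most like that of a member were found by the root mean square difference of log2 values, each centred on its mean. For *Muc20*, whose own spread about its mean was 0.521 on this scale, these were *Rbbp7* (0.177), *Fitm2* (0.198) and *Fam3a* (0.204), and the mean normalized count of *Rbbp7*, a histone-binding protein, was 33370 in control + vehicle, 60242 in control + A83-01, 65924 in *Smad2/3* cKO and 77081 in *Smad2/3* cKO + A83-01. For *Muc1*, with a spread of 0.287, they were *Sqstm1* (0.124), *Tbc1d25* (0.150) and *Tapbpl* (0.157). The likeness was looser for *Muc16*, where *Angptl4*, *Cpe* and *Vav1* differed by 1.4 to 1.5 against a spread of 2.25, and for *Muc13*, where *Ndufaf6*, *Gsdma* and *Rpl15-ps2* differed by 0.769 to 0.844 against 1.21. The points are samples of 4 groups, so that any gene that differs between the same groups scores as alike.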

How the data were processed

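RNA was extracted from mouse endometrial organoids and sequenced after low-input cDNA amplification. The values the authors deposited, of the unit signal, are counts per gene estimated with Salmon 1.4.0 on GRCm39 and divided by DESeq2 1.32.0 size factors, per the labels. Each of the 15 samples had a median ratio of 1.01 to the geometric mean, taken over 12745 genes with no 0. Low values were whole multiples of a smallest step (tolerance 0.01) in at most 2.64% of cases, so whole reads were not recovered. The mucins and lists were chosen with earlier results of these data known. The genes named are the members, *Smad2* and *Smad3*, from each list up to 4 genes with the largest change among those past the thresholds with A83-01 in control or in *Smad2/3* cKO against control + vehicle, and the 3 genes most like each member with a mean of at least 10, from genes with a mean of at least 50. Cell type markers and *Msln* were added after their values were seen.

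Each comparison was fitted on its own samples (all 15 for the interaction) with limma 3.58.1 (lmFit, eBayes with trend) in R 4.3.3 on log2(normalized count + 1), keeping genes whose mean reached 10, with Benjamini-Hochberg adjustment over all genes tested. Fold changes are on that scale, which understates those of low genes. The fit was tested on simulated data. Alternatives were pseudocounts of 0.1 and 10, no filter, a minimum of 50, quantile normalization, no trend, all 4 groups in 1 fit, the replicate number as a block, an adjusted p below 0.05 and each sample left out. Control samples with and without A83-01 carry the same label numbers and deviate together (r of 0.354 to 0.423 for the 3 pairs). Between different numbers r was -0.359 to 0.347, the highest being control + vehicle replicate 3 with control + A83-01 replicate 4. The 3 pairs were taken as paired for the ratios within label numbers and the replicate block, while the main tests leave the pairing out. Exon lengths and overlaps come from GENCODE vM21 and start regions from RefSeq, both on GRCm38. The methods of the study give an approximate number of reads for all samples alike, and the depth of each sample was not analysed here.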

Additional observations from a re-analysis of the deposited data

Results flagged for a closer look

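*Muc15* in control + A83-01 held 1 sample far from the others, at a normalized count of 5.85 beside 3 samples at 0. Of the 14 groups of 4 samples in which a member exceeded 3, this was the 1 that stood out. By chance about 1 in 20 such groups would be marked if values were normally distributed. That rate does not apply here, since with 3 samples at 0 any positive value stands out. All other *Muc15* values were under 3.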

How the results depend on the processing

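Of the members past the thresholds, 2 in *Smad2/3* cKO against control + vehicle became 1 with a pseudocount of 0.1, without a filter, with a minimum mean of 50 and without trend, and 0 to 1 with single samples left out. In *Smad2/3* cKO + A83-01 against control + vehicle, 2 became 1 under those settings, with quantile normalization and with all 4 groups in 1 fit, and 1 to 2 with single samples left out, the call lost being that of *Muc16*. In *Smad2/3* cKO against control + vehicle, *Muc20* kept its call in 6 of 9 changes of setting and *Muc16* in 6 of the 8 in which it was tested. With a minimum of 50 *Muc16* is not tested, and the cause of the other losses was not tested. In the other 5 comparisons 0 members passed under every alternative tried. Under the replicate block the number of members past the thresholds was 0 in every comparison. The block joins samples by replicate number in every comparison, also where *Smad2/3* cKO samples were not taken as paired. In comparisons of control + vehicle with 1 other group it sets aside replicate 4, which control + vehicle lacks. With the block, *Muc20* had a limma adjusted p of 0.0422 in *Smad2/3* cKO and 0.010002 in *Smad2/3* cKO + A83-01 against control + vehicle. The *Muc1* log2 difference turned to 0.018 in *Smad2/3* cKO and to -0.026 in the interaction of genotype and A83-01. Replicate numbers of *Smad2/3* cKO samples were not taken to pair them (r of 0.0153 to 0.0774 with control + vehicle and -0.166 to 0.375 with *Smad2/3* cKO + A83-01). Block values for comparisons that hold *Smad2/3* cKO samples therefore join samples with no established pairing. The number in the label of *Smad2/3* cKO replicate 2 is also that of *Smad2/3* cKO + A83-01 replicate 1 (r = 0.355), and *Smad2/3* cKO replicate 1 shares its with replicate 1 of both control groups, so these samples may not be independent, and the tests treat them as such.

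With single samples left out, log2 differences changed sign for *Muc1* in *Smad2/3* cKO against control in vehicle (-0.19 to 0.018) and under A83-01 (-0.19 to 0.17), in deletion against inhibitor (-0.057 to 0.30) and in the interaction (-0.088 to 0.27). They did so for *Muc13* with A83-01 in *Smad2/3* cKO (-0.83 to 0.20), in *Smad2/3* cKO + A83-01 against control + vehicle (-0.19 to 1.75) and in deletion against inhibitor (-0.50 to 0.31), and for *Muc5b* with A83-01 in *Smad2/3* cKO (-0.87 to 0.39). *Muc20* and *Muc16* kept their sign under every alternative in which they were tested. Over all genes, 295 passed for A83-01 in control organoids (146 without a filter, 642 with all 4 groups in 1 fit, 955 at an adjusted p below 0.05, 49 without control + vehicle replicate 2), 970 in *Smad2/3* cKO (452 without trend, 211 with the block, 2410 at 0.05, 280 without control + vehicle replicate 1), 1538 in *Smad2/3* cKO + A83-01 (568 with the block, 2928 at 0.05, 736 without control + vehicle replicate 2), 3 between genotypes under A83-01 (0 to 5) and 72 in the interaction (208 at 0.05). The 3 control + vehicle samples limit every contrast with that group.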

Other observations

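*Ovgp1*, oviductal glycoprotein 1, a secreted mucin-like protein of the female tract, was chosen after its values were seen. Its normalized count ranged in control + vehicle from 405 to 1596. The ranges were 105 to 248.8 with A83-01 in control organoids and 118 to 358 with the deletion. With both it was 96.1 to 2280 (mean 665 ± 1077 SD), and only this group overlapped with control + vehicle, through its highest sample. *Smad2/3* cKO did not overlap with control + vehicle, as was so downward for 16% of genes. *Ovgp1* did not pass the thresholds with A83-01 in control organoids (log2 fold change -2.25 ± 0.50, limma adjusted p = 0.0291) or in *Smad2/3* cKO (-1.998 ± 0.49, limma adjusted p = 0.0219). *Prom1*, a membrane glycoprotein and the most abundant gene of the mucin-like list, had group means of 29737, 28567, 38529 and 43870 in the same order of groups.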
